A study of Sus scrofa with 9 samples.

Results

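T lymphocytes and natural killer (NK) cells were followed in pig liver through 38 marker genes chosen by symbol, of which 36 were analysed out of 29837 gene symbols in the table. ZAP70 and TRAT1 were not analysed here. The livers came from females aged 2 years, 4 of them MIDY and 5 wild type (WT). MIDY pigs, named for the diabetes of youth that mutant INS alleles cause in people, carry a transgene for C94Y mutant insulin. WT pigs carry no transgene. Per the labels, diabetic animals were given insulin of short and of long action, so genotype, diabetes and insulin treatment cannot be told apart. The transgene's promoter and the number of founder lines are not stated by the labels. Each library is ribosome-depleted total RNA of 1 liver, read to 14115415 to 19533463 counts.

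T cells recognise peptides on MHC molecules through the T cell receptor, whose chains sit on the membrane with the CD3 subunits. The coreceptors CD4 and CD8 hold the receptor to MHC class II and class I. NK cells carry no T cell receptor and weigh activating against inhibitory surface receptors. Both cytotoxic T cells and NK cells kill with granules that hold perforin, granzymes and granulysin. The liver sinusoids hold resident and passing cells of both kinds, among far more numerous hepatocytes. In pigs, CD2 and the alpha chain of CD8 are found on NK cells as well as on T cells, so neither marks T cells alone.

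The markers were rare transcripts. Together they took 1464 to 4072 counts per library, or 0.00917 to 0.0208% of all counts. Levels are given as CPM, counts per 1000000 of the library after TMM scaling. On that scale 1 count equals 0.0499 to 0.0695 CPM. Of the 36 genes, 26 passed the low-count filter (0.591 CPM reached in 4 or more libraries) and were tested. For 8 of these 26, fewer than all 4 MIDY libraries reached that level, so the filter leans towards genes that are high in WT, and counts over the tested markers are a description. The median standard error of a log2 fold change was 0.33 for the tested markers and 0.18 for all 14100 tested genes.

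One liver stood apart. WT 2 held the highest level of 17 of the 26 tested markers, where it held the highest level of 11.9% of all tested genes. Its median ratio to the mean of the other WT livers was 1.55 over the tested markers and 0.988 over all tested genes. The summed level of hepatocyte markers was also lowest in WT 2, at 112246 CPM against 142094 to 168847 in the other 8 livers. Fits after the low-count filter were repeated without WT 2. Where that moved a printed fold change or list median by over 1.5 times or turned its sign, the value without WT 2 is given. The fit with no filter was not repeated without WT 2.

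**Figure D1:**
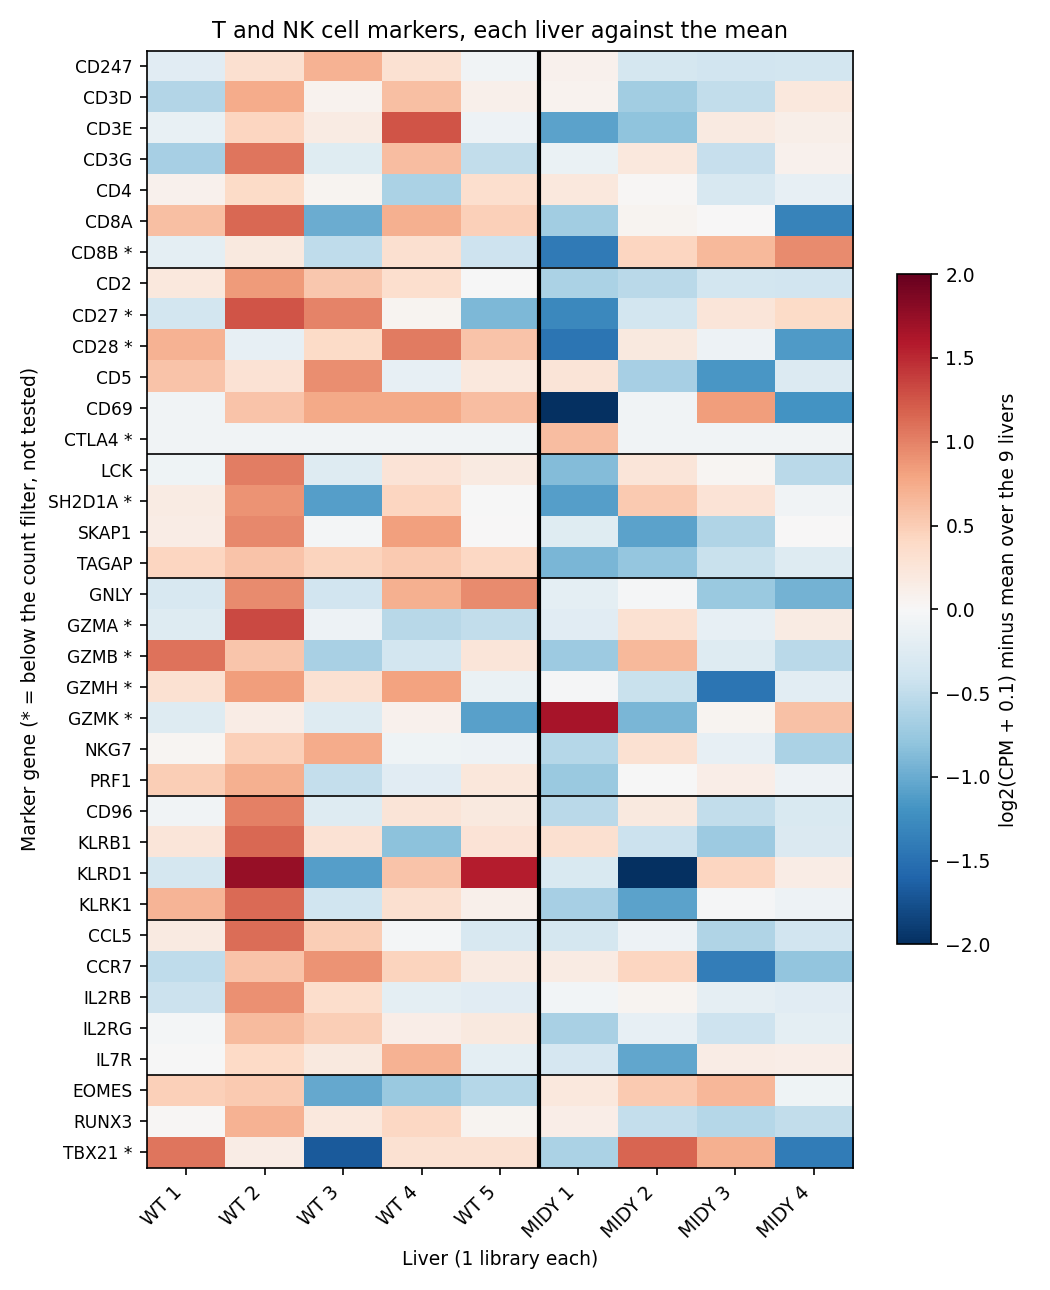
Heat map of 36 T and NK cell markers (rows, grouped by role) in 9 livers (columns, WT to the left of the line and MIDY to the right). Colour is log2(CPM + 0.1) minus the gene's mean over the 9 livers, and an asterisk marks the 10 genes below the count filter. The column of WT 2 holds the most dark red cells, and WT 2 is highest for 17 of the 26 tested markers.

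TAGAP and CD2 were lower in every MIDY liver than in any WT liver, by about 2-fold. TAGAP is expressed in activated T cells, and CD2 is the adhesion receptor through which T and NK cells bind CD58 on other cells. These were the 2 of 26 tested markers that fell at an edgeR adjusted p below 0.05, and 0 rose. Over all tested genes 0.355% fell, 0.816% rose and 1.17% changed in either direction by the same rule. At an unadjusted p below 0.05 there were 11 markers, all lower, and 16.1% of all tested genes in either direction (1128 lower and 1149 higher). The fitted log2 fold change lay below 0 for 25 of the 26 tested markers (50.7% of all tested genes), with a median of -0.68 for the markers and 0.00 for all tested genes. Without any low-count filter it lay below 0 for 31 of all 36 markers (86.1%, against 51.5% of 21897 genes), with a median of -0.60.

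Without WT 2, 24 of the 26 lay below 0, against 50.8% of all tested genes, and the median was -0.51. Those 24 include CD4 at -0.05 and IL2RB, which rounds to 0.00. In that fit 0 markers and 0.0851% of all tested genes were called lower by edgeR (adjusted p = 0.0582 for TAGAP and 0.0692 for CD2). In bulk tissue, fewer cells of a type and less RNA per cell cannot be told apart.

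**Figure D2:**
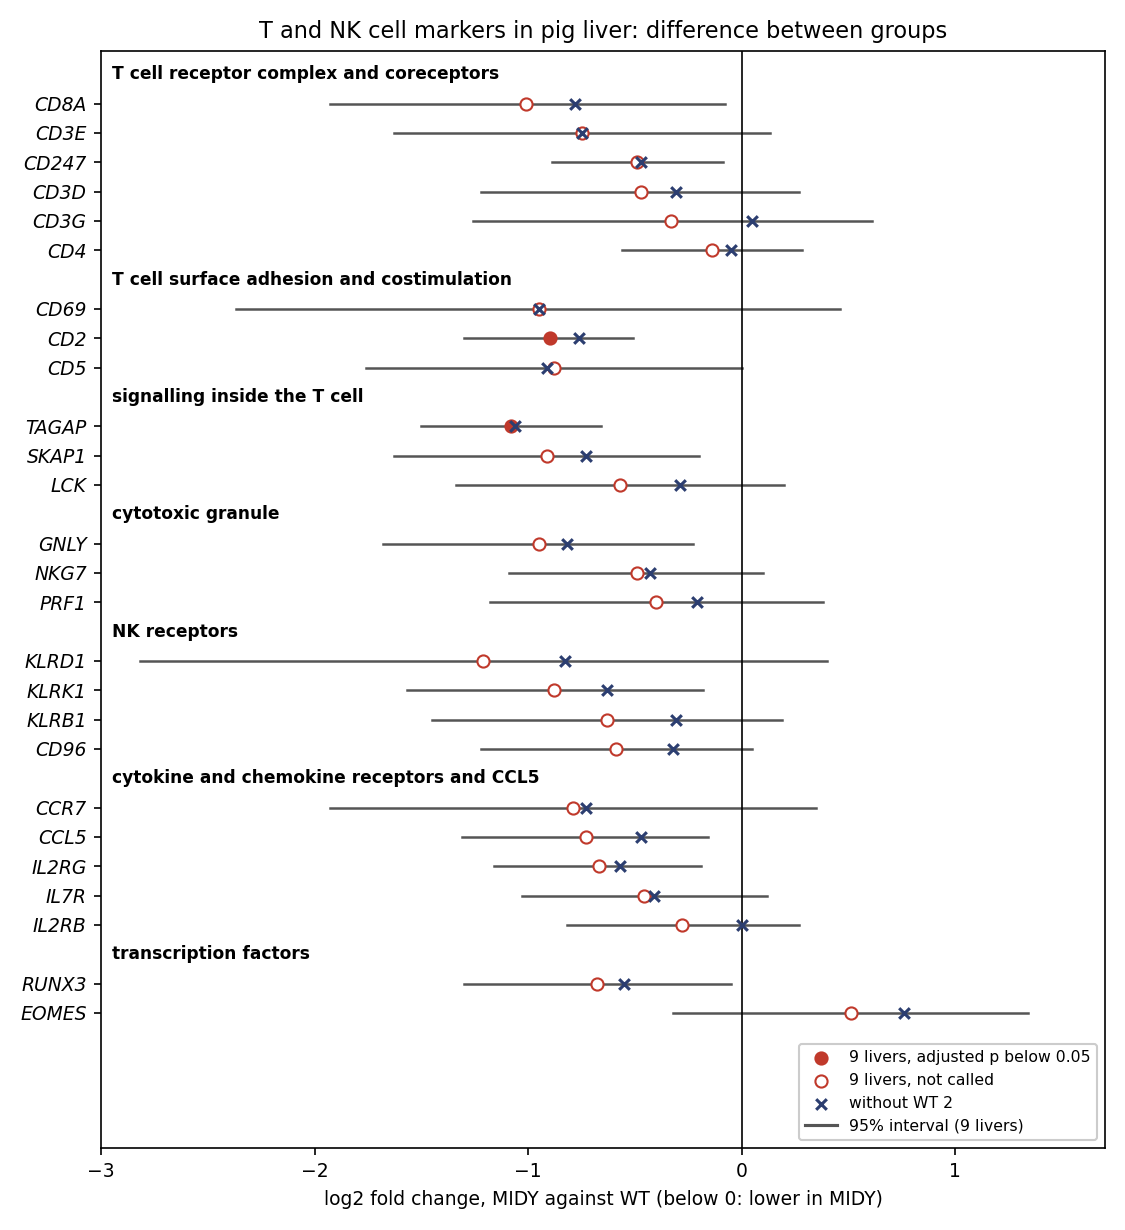
Log2 fold change (x axis, MIDY against WT, below 0 means lower in MIDY) of the 26 tested markers (y axis, by role), with 95% intervals. Filled circles are the 2 called genes TAGAP and CD2, open circles the others, and crosses the values without WT 2. All values but that of EOMES lie left of 0 with 9 livers, and most crosses lie nearer to 0 than their circles.

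TAGAP (chromosome 1, 8209298 to 8217993 on Sscrofa11.1) stood at 3.96, 4.34, 4.00, 4.22 and 3.89 CPM in WT 1 to 5. In MIDY 1 to 4 it stood at 1.50, 1.66, 2.10 and 2.41 CPM. The WT livers lay within a narrow band, WT 2 among them, and the highest MIDY liver was well below the lowest WT liver. From a WT mean of 4.08 ± 0.19 CPM (SD, n = 5) the level fell in MIDY to 1.92 ± 0.42 (SD, n = 4), a log2 fold change of -1.08 ± 0.20 (SE; edgeR adjusted p = 0.0237). It was -1.06 without WT 2. Leaving out each library in turn, TAGAP kept its call in 4 of 9 fits; the adjusted p was 0.0541 to 0.0770 without MIDY 2, MIDY 3, WT 2, WT 4 or WT 5.

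CD2 (chromosome 4, 103963802 to 103976971) had 7.85, 12.3, 9.86, 8.57 and 6.77 CPM in WT 1 to 5. Its levels in MIDY 1 to 4 were 4.36, 4.65, 5.21 and 5.19 CPM. WT 2 was the highest liver, and the groups did not overlap. The log2 fold change was -0.90 ± 0.18 (SE; edgeR adjusted p = 0.0377), and -0.76 without WT 2. Its call held in 2 of the 9 such fits, those without WT 1 and without WT 5, and its adjusted p reached 0.108 without MIDY 2. With total counts alone (edgeR adjusted p = 0.0535) or limma voom (adjusted p = 0.0543) CD2 was not called. DESeq2 called TAGAP and CD2 lower, as it did 2.01% of all tested genes, and limma voom called TAGAP lower, as it did 0.582%.

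IL2RG was the third marker whose groups did not overlap. It encodes the common gamma chain shared by the receptors for IL-2, IL-7, IL-15 and other cytokines. WT 1 to 5 had 2.36, 3.79, 3.45, 2.65 and 2.77 CPM and MIDY 1 to 4 had 1.50, 2.15, 1.79 and 2.10 CPM. The gap between MIDY 2 and WT 1 was small, and the gene was not called (-0.67 ± 0.22 log2, SE; edgeR adjusted p = 0.169). Its gene model overlaps that of MED12, so its counts are uncertain. Groups did not overlap with MIDY lower for 3 of 26 markers and 2.63% of all tested genes, and with MIDY higher for 0 markers and 3.72% of all tested genes.

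**Figure D3:**
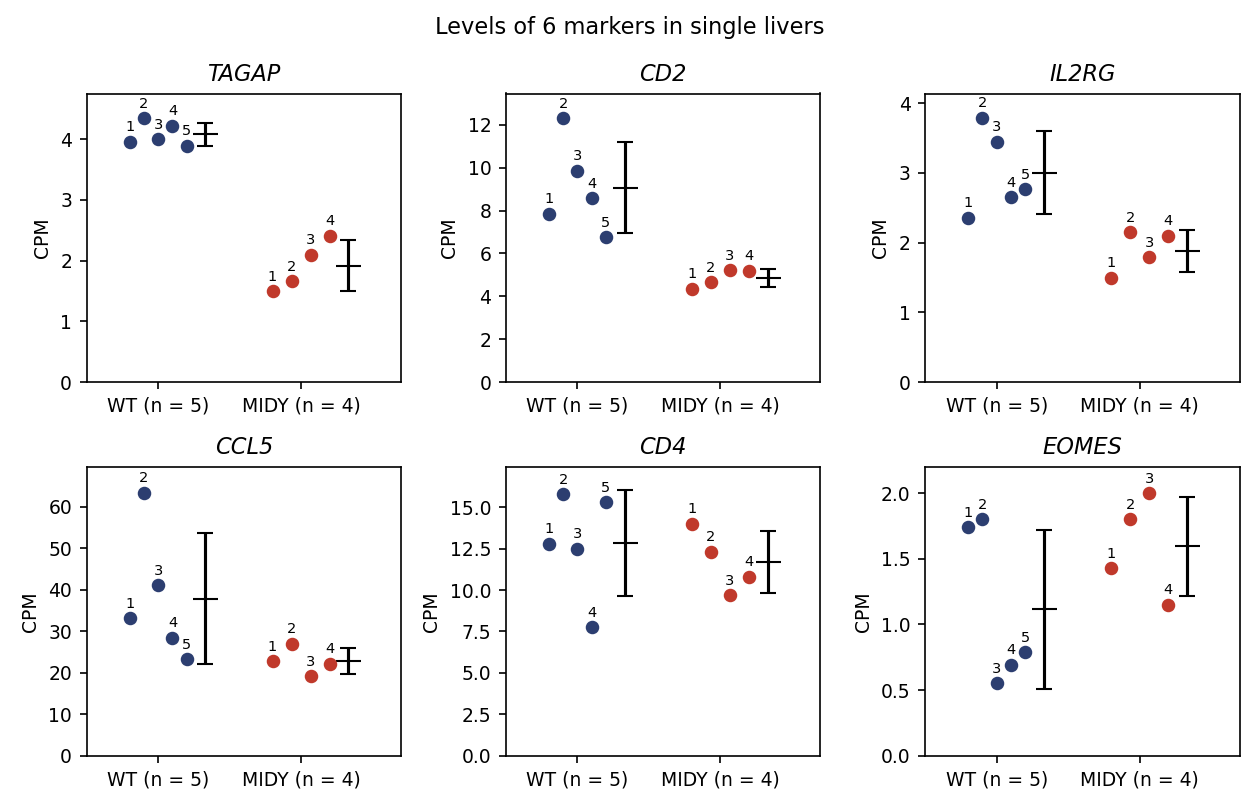
CPM (y axis, from 0) of TAGAP, CD2, IL2RG, CCL5, CD4 and EOMES in single livers, numbered by replicate, with the mean and SD of each group beside the points. TAGAP, CD2 and IL2RG do not overlap between groups, while CCL5, CD4 and EOMES do.

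Of the 7 genes of the T cell receptor complex and its coreceptors, 6 were tested and 0 were called. Their fitted log2 values ran from -1.01 for CD8A, about 2-fold lower, to -0.14 for CD4, and 2 of them, CD247 and CD8A, had an unadjusted edgeR p below 0.05 (0.0206 and 0.0355). CD3D, CD3E and CD3G lie side by side on chromosome 9, between 45619730 and 45656779, and encode the delta, epsilon and gamma subunits. CD3E had 1.04, 1.60, 1.31, 2.90 and 1.07 CPM in WT 1 to 5 and 0.499, 0.624, 1.32 and 1.26 CPM in MIDY 1 to 4. CD3D had 0.833, 2.25, 1.38, 2.02 and 1.41 CPM in WT and 1.37, 0.763, 0.895 and 1.52 CPM in MIDY. CD3G had 0.486, 1.85, 0.690, 1.32 and 0.564 CPM in WT and 0.748, 0.971, 0.579 and 0.891 CPM in MIDY. In all 3 genes the groups overlapped, WT 2 and WT 4 were the highest livers, and WT 1 lay below 3 of the 4 MIDY livers for CD3D and below all 4 for CD3G. The log2 fold changes were -0.75 ± 0.41 for CD3E, -0.47 ± 0.34 for CD3D and -0.33 ± 0.43 for CD3G (SE; edgeR adjusted p = 0.390, 0.535 and 0.762). Without WT 2, CD3G came to 0.05 and CD3D to -0.31. CD3G was -0.12 without WT 1 and WT 2 together, so its direction changed with the WT livers that were kept. CD3E was -0.43 without WT 4, its highest liver. The 95% interval of CD3G, -1.26 to 0.61, leaves room for a fall as large as that of CD2.

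CD247 encodes the zeta chain, which carries the signal of the T cell receptor and of several NK receptors. It had 14.7, 21.5, 28.1, 21.3 and 16.4 CPM in WT 1 to 5, and 18.3, 13.5, 13.2 and 13.3 CPM in MIDY 1 to 4. Only MIDY 1 reached into the WT range, where it passed WT 1 and WT 5. The log2 fold change was -0.49 ± 0.18 (SE; edgeR adjusted p = 0.220) and -0.47 without WT 2. CD8A, the alpha chain of CD8, had 2.29, 3.39, 0.690, 2.46 and 2.09 CPM in WT and 0.873, 1.53, 1.47 and 0.524 CPM in MIDY. WT 3 lay within the MIDY range and the other 4 WT livers above it (-1.01 ± 0.43 log2, SE; edgeR adjusted p = 0.270). CD8B, its neighbour on chromosome 3 and a chain of the CD8 of conventional cytotoxic T cells, was too low to test, with 4, 8, 3, 7 and 4 counts in WT and 1, 7, 11 and 14 in MIDY. The 3 highest CD8B levels in CPM came from MIDY 2, MIDY 3 and MIDY 4, and MIDY 4 was the lowest liver for CD8A. CD4, the coreceptor of helper T cells that pig plasmacytoid dendritic cells carry too, had 12.8, 15.8, 12.5, 7.75 and 15.3 CPM in WT and 14.0, 12.3, 9.68 and 10.8 CPM in MIDY. WT 4 was the lowest liver of all, and the 95% interval of the CD4 log2 fold change ran from -0.56 to 0.28 (edgeR adjusted p = 0.778). The CD4 value was -0.05 without WT 2 and -0.28 without WT 4.

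Among surface receptors for adhesion and costimulation, CD2 was the called gene of 3 tested out of 6. CD5, a negative regulator of T cell receptor signals, had 0.630 to 1.45 CPM in WT (median 0.898) and 0.263 to 0.873 CPM in MIDY. Its groups overlapped, with WT 4 and WT 5 inside the MIDY range and MIDY 1 inside the WT range (-0.88 ± 0.41 log2, SE; edgeR adjusted p = 0.309). CD69, an early activation and tissue residence marker, varied within MIDY, with counts of 0, 5, 14 and 2 against 5, 12, 10, 11 and 11 in WT. A count of 0 in MIDY 1 allows up to 3 counts, or 0.187 CPM. CD28, the receptor of the main costimulatory signal, was below the filter at 9, 6, 7, 13 and 10 counts in WT and 1, 6, 6 and 2 in MIDY. CD27, another costimulatory receptor of the TNF receptor family, had 2 to 17 counts in WT and 1 to 8 in MIDY. CTLA4, the inhibitory counterpart of CD28 and its neighbour on chromosome 15, had 1 count in MIDY 1 and 0 in the other 8 livers. Over the WT group 0 counts allow up to 3, or 0.0363 CPM.

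Inside the T cell, TAGAP was the called gene of 3 tested. SKAP1, an adaptor that links the T cell receptor to integrin adhesion, had 1.74, 3.14, 1.52, 2.83 and 1.58 CPM in WT 1 to 5 and 1.31, 0.693, 1.0 and 1.57 CPM in MIDY 1 to 4. MIDY 4 reached into the WT range by a small margin, above WT 3 only (-0.91 ± 0.33 log2, SE; edgeR adjusted p = 0.204). The model of LOC110256020 overlaps SKAP1, whose counts are uncertain. LCK, the kinase that starts T cell receptor signalling, had 1.10 to 2.80 CPM in WT (median 1.52) and 0.686 to 1.59 CPM in MIDY. Its log2 fold change went from -0.57 ± 0.36 (SE; edgeR adjusted p = 0.464) to -0.29 without WT 2. SH2D1A, the SAP adaptor of T and NK cells, had at most 6 counts in any liver.

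Of the 7 cytotoxic granule genes only 3 could be tested, and 0 were called. GNLY, the granulysin gene known in pigs as NK-lysin, had 4.31, 10.5, 4.14, 8.94 and 10.6 CPM in WT 1 to 5 and 4.74, 5.34, 3.21 and 2.78 CPM in MIDY 1 to 4. WT livers fell into a pair at the MIDY level (WT 1 and WT 3) and 3 at a higher level (WT 2, WT 4 and WT 5). The log2 fold change was -0.95 ± 0.33 (SE; edgeR adjusted p = 0.190). NKG7, a granule membrane protein, had 2.64, 3.59, 4.34, 2.39 and 2.37 CPM in WT and 1.68, 3.19, 2.26 and 1.62 CPM in MIDY. PRF1, the pore-forming perforin, had 1.32, 1.55, 0.621, 0.756 and 1.07 CPM in WT and 0.499, 0.901, 1.0 and 0.838 CPM in MIDY. In both genes the ranges overlapped, and the fits gave -0.49 ± 0.28 for NKG7 and -0.40 ± 0.36 for PRF1 (log2 ± SE; edgeR adjusted p = 0.408 and 0.633). PRF1 came to -0.21 without WT 2, to -0.23 without MIDY 1 and to -0.02 without WT 1 and WT 2 together.

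The 4 granzymes, serine proteases that perforin lets into the target cell, were too low to test. GZMA, the symbol of 2 entries in the reference and therefore uncertain, had 7, 33, 8, 6 and 7 counts in WT and 8, 11, 10 and 13 in MIDY. WT 2 alone held more GZMA counts than the other 4 WT livers together. The mean GZMA level was 0.617 CPM in MIDY and 0.692 CPM in WT, but 0.453 CPM in WT without WT 2. The WT mean was thus above that of MIDY only with WT 2 included. GZMK had 4, 8, 4, 6 and 2 counts in WT and 21, 2, 7 and 11 in MIDY, with its highest value in MIDY 1. GZMB had 10, 9, 2, 3 and 6 counts in WT and 2, 7, 4 and 3 in MIDY. GZMH, next to GZMB on chromosome 7, had 6, 13, 6, 10 and 5 counts in WT and 5, 3, 1 and 5 in MIDY. Without the low-count filter the fitted log2 values were 1.04 ± 0.60 for GZMK, -0.19 ± 0.49 for GZMA, -0.58 ± 0.66 for GZMB and -1.18 ± 0.60 for GZMH (SE; edgeR), and 0 were called. The difference between granzymes was not tested.

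All 4 NK receptor genes were tested and 0 were called. KLRK1 encodes NKG2D, an activating receptor for stress ligands. It had 5.35, 7.39, 2.48, 4.16 and 3.56 CPM in WT 1 to 5 and 2.06, 1.53, 3.26 and 3.09 CPM in MIDY 1 to 4. WT 3 lay below MIDY 3 and MIDY 4, and the other WT livers above all MIDY livers (-0.88 ± 0.32 log2, SE; edgeR adjusted p = 0.207). KLRD1, or CD94, the partner chain of NKG2 receptors and the neighbour of KLRK1 on chromosome 5, was patchy, with 6, 42, 3, 14 and 33 counts in WT and 7, 0, 15 and 12 in MIDY. Its 95% interval on the log2 scale was the widest of the tested markers, from -2.82 to 0.40. KLRB1 (CD161) and CD96, a receptor for nectin-like adhesion proteins, had values of -0.63 ± 0.38 and -0.59 ± 0.29 with all livers, and -0.31 and -0.32 without WT 2 (log2 ± SE). WT 2 was the highest liver for all 4 receptors. The models of LOC102158769 and ZBED2 overlap CD96, which makes its counts uncertain.

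Of the cytokine and chemokine genes, 5 were tested and 0 were called. CCL5, a chemokine stored and released by memory T cells and NK cells, had 33.1, 63.4, 41.1, 28.4 and 23.3 CPM in WT 1 to 5 and 22.8, 27.0, 19.2 and 22.2 CPM in MIDY 1 to 4. Only MIDY 2 and WT 5 crossed, and WT 2 had 2.01 times the mean of the other WT livers. The log2 fold change was -0.73 ± 0.26 (SE; edgeR adjusted p = 0.204) and -0.47 without WT 2. IL2RB, the beta chain for IL-2 and IL-15, had 6.46, 16.6, 11.2, 7.62 and 7.51 CPM in WT and 8.41, 9.15, 7.68 and 7.44 CPM in MIDY. Its fitted value of -0.28 ± 0.25 (log2 ± SE) was 0.00 without WT 2 and -0.11 without WT 1 and WT 2 together. IL7R, a receptor of naive and memory T cells, had 3.33 to 6.23 CPM in WT (median 4.41) and 1.80 to 4.26 CPM in MIDY. CCR7, which guides naive T cells to lymph nodes, had 0.278 to 0.896 CPM in WT (median 0.630) and 0.105 to 0.624 CPM in MIDY. Both overlapped between the groups (edgeR adjusted p = 0.429 and 0.490). The counts of IL7R are uncertain because the model of LOC106508147 overlaps it.

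Among the 26 tested markers, EOMES alone had a fitted value above 0 with all livers. Without the low-count filter CTLA4, GZMK, CD8B and TBX21 lay above 0 as well, at 1.58 ± 1.36, 1.04 ± 0.60, 0.59 ± 0.59 and 0.03 ± 0.64 (log2 ± SE; edgeR, 0 called). EOMES encodes a T-box factor of NK cells and memory CD8 T cells. WT 1 to 5 had 1.74, 1.80, 0.552, 0.693 and 0.790 CPM, and MIDY 1 to 4 had 1.43, 1.80, 2.00 and 1.15 CPM. WT 1 and WT 2 lay at the MIDY level and WT 3, WT 4 and WT 5 below every MIDY liver. The log2 fold change was 0.51 ± 0.38 with all livers and 0.76 without WT 2, and neither was called (SE; edgeR adjusted p = 0.555 and 0.428). Without WT 1 and WT 2 together EOMES came to 1.21, and it was not called there either (edgeR adjusted p = 0.165). TBX21, the related factor T-bet, was too low to test, at 15, 10, 1, 9 and 10 counts in WT and 4, 16, 15 and 2 in MIDY. RUNX3, a factor of the cytotoxic lineage, had 1.32, 2.15, 1.52, 1.76 and 1.35 CPM in WT and 1.43, 0.901, 0.842 and 0.891 CPM in MIDY. In RUNX3 only MIDY 1 reached the WT range, as in CD247 (-0.68 ± 0.29 log2, SE; edgeR adjusted p = 0.270).

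The summed level of the 36 markers was 120, 203, 145, 129 and 119 CPM in WT 1 to 5 and 99.3, 102, 90.2 and 92.5 CPM in MIDY 1 to 4. Every MIDY liver lay below every WT liver, and the MIDY livers were close together (95.9 ± 5.36 CPM, SD, n = 4) while the WT livers were spread by WT 2 (143 ± 35.2 CPM, SD, n = 5). The sum is carried by CCL5, CD247, CD4 and IL2RB. Without these 4 genes it was 52.1 to 85.9 CPM in WT and 35.9 to 40.5 CPM in MIDY, again with no overlap. These sums are a description, since the markers were chosen with earlier results known.

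Of the 18 tested further T cell receptor and signalling genes, 0 were called, all 18 lay below 0 with all livers and 16 without WT 2, and the median log2 fold change was -0.48. SIT1, an inhibitory adaptor of the T cell receptor, had 7, 26, 11, 17 and 19 counts in WT and 1, 5, 5 and 3 in MIDY. THEMIS, which sets signal strength in T cell development, had 2.08, 3.09, 1.79, 4.03 and 2.14 CPM in WT and 0.810, 0.832, 1.58 and 0.838 CPM in MIDY. Neither gene overlapped between the groups, and neither was called (-2.17 ± 0.48 and -1.36 ± 0.33 log2, SE; edgeR adjusted p = 0.0525 and 0.0669). The model of LOC110255822 overlaps SIT1, whose counts are uncertain. Of 9 tested further NK and cytotoxic genes, 7 lay below 0 and 0 were called, with a median of -0.46, and of -0.27 without WT 2. FCGR3A, the CD16 of NK cells and macrophages, had the smallest p of these (-0.46 ± 0.12 log2, SE; edgeR adjusted p = 0.0832).

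Of 3 tested genes of the gamma delta T cell list (SOX13, BLK and GPR183), 2 lay below 0 (median -0.24). The receptor chain genes TRDC, TRGC1, TRGC2 and TRDV1 were not analysed here, so this list does not measure gamma delta T cells. Among 14 tested transcription factor and cytokine signalling genes 11 lay below 0 (median -0.21), and without WT 2 there were 8 (median -0.04). Among 17 homing and chemokine genes 14 lay below 0 (median -0.43), and without WT 2 there were 13 (median -0.27). None of these 3 lists held a called gene. TCF7, a factor of naive and memory T cells, lay the other way, higher in every MIDY liver than in any WT liver. It had 10.7 ± 2.09 CPM in WT (SD, n = 5) and 17.7 ± 3.62 CPM in MIDY (SD, n = 4). The log2 fold change of TCF7 was 0.73 ± 0.17, and it was not called (SE, edgeR adjusted p = 0.0634). CXCL9, which draws CXCR3-bearing T cells into tissue, had a log2 fold change of -1.39 ± 0.50, and -0.90 without WT 2 (SE; edgeR adjusted p = 0.208 and 0.329).

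Of 10 pan-leukocyte genes, 3 fell and 0 rose, all 10 lay below 0, and the median log2 fold change was -0.43. The 3 were CORO1A, an actin regulator of leukocytes (-0.80 ± 0.15), ARHGDIB (-0.72 ± 0.15), and RAC2, the Rac GTPase of blood cells (-0.68 ± 0.14 log2, SE; edgeR adjusted p = 0.0273, 0.0434 and 0.0436). None of the 3 was called without WT 2 (edgeR adjusted p = 0.0625, 0.0940 and 0.10), and leaving out each library in turn kept the call of CORO1A in 3, of ARHGDIB in 1 and of RAC2 in 1 of 9 fits. Other gene models overlap ARHGDIB, so its counts are uncertain. PTPRC, the CD45 of all leukocytes, was not called (-0.36 ± 0.16 log2, SE; edgeR adjusted p = 0.292). The pan-leukocyte sum was 179 to 251 CPM in WT and 128 to 157 CPM in MIDY. Divided by that sum, the T and NK marker sum was 0.656 to 0.811 in WT and 0.618 to 0.725 in MIDY, so the groups overlapped relative to these pan-leukocyte genes. Without CCL5, CD247, CD4 and IL2RB the ratio was 0.281 to 0.343 in WT and 0.244 to 0.304 in MIDY. There only MIDY 4 reached into the WT range.

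Of 8 tested B and plasma cell markers, all lay below 0 (median -0.75) and 1 fell, BLNK, a B cell receptor adaptor (-1.25 ± 0.26 log2, SE; edgeR adjusted p = 0.0410, and 0.0944 without WT 2). The call of BLNK was kept in 2 of 9 fits without a library, and its counts are uncertain because another gene model overlaps it. Their sum was 28.5 to 62.5 CPM in WT, with WT 2 highest, and 20.6 to 27.6 CPM in MIDY. Of 15 Kupffer cell and macrophage markers 11 lay below 0 (median -0.20), 0 were called, and their sums overlapped, at 1159 to 1583 CPM in WT and 1016 to 1375 CPM in MIDY. MARCO, a scavenger receptor of macrophages with the smallest p of that list, lay the other way, at 5.54 to 17.1 CPM in WT and 18.0 to 23.8 CPM in MIDY with no overlap (0.98 ± 0.29 log2, SE; edgeR adjusted p = 0.138). Another gene model overlaps MARCO as well. All 5 tested dendritic cell markers (median -0.42) and all 3 tested neutrophil markers (median -0.69) lay below 0, with 0 called. Platelet and red cell markers varied widely within both groups, from 74.3 to 1489 CPM in WT and 166 to 538 CPM in MIDY, and the lowest sums were those of WT 4 and WT 5.

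**Figure D4:**
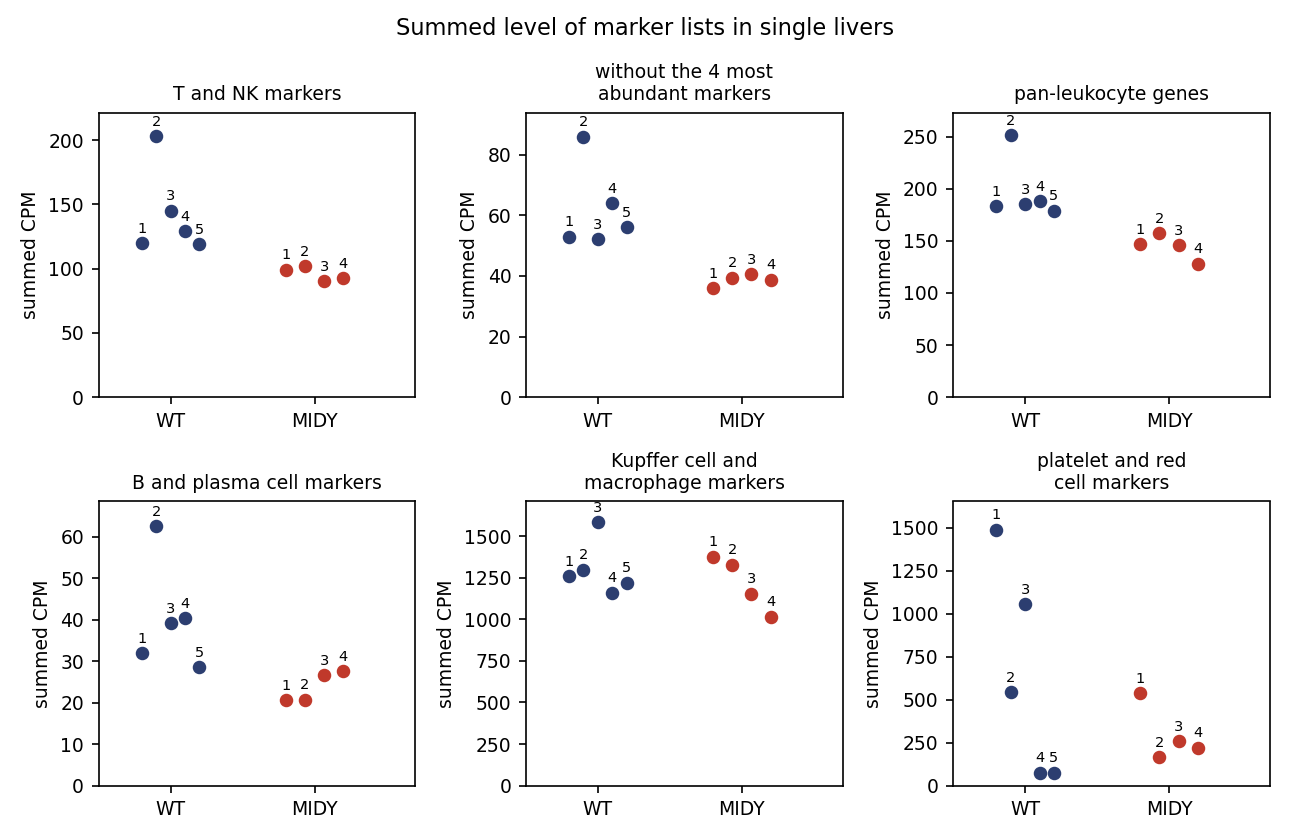
Summed CPM (y axis, from 0) of 6 marker lists in single livers, numbered by replicate, WT in blue and MIDY in red. The sums of T and NK markers, with and without the 4 most abundant, of pan-leukocyte genes and of B and plasma cell markers do not overlap between groups, while those of macrophage and of platelet and red cell markers do.

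The tissue itself was liver by its markers: all 8 hepatocyte markers were tested, with sums of 112246 to 167899 CPM in WT and 142767 to 168847 CPM in MIDY. Of these 8, 2 lay below 0 (median 0.11) and 0 were called. Endothelial markers gave 5 of 8 below 0 (median -0.09, and -0.05 without WT 2; 0 called), and biliary and stellate cell markers 7 of 9 (median -0.51), with COL1A2, a chain of type I collagen, called lower (edgeR adjusted p = 0.0434, and 0.0859 without WT 2; call kept in 2 of 9 fits without a library). The part of the general leukocyte signal or of the hepatocyte share in the T and NK marker differences was not tested.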

How the data were processed

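Total liver RNA (Trizol) was depleted of ribosomal RNA and made into libraries with the Encore kit of Nugen, per the labels' protocols. STAR, HTSeq, DESeq2 and the build Sscrofa11.1 are named in the submitters' processing notes; for versions, annotation release and strand setting, none is stated there. The deposited values are whole-number read counts for each gene symbol, unscaled, 1 column per liver, with 0 unused columns and 0 rows that name no gene. Without a known strand setting, reads of overlapping genes cannot be told apart. All 29837 symbols, the 36 analysed markers among them, were found in RefSeq's gene list for Sscrofa11.1, whose positions are used. That table gives gene spans and no transcript lengths, so CPM were not corrected for length. Summed levels, and which markers were the most abundant, rest on these uncorrected levels.

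The test was edgeR 4.0.16 under R 4.3.3 (filterByExpr, TMM, robust quasi-likelihood fit, all 9 libraries), which kept 14100 genes. P-values are two-sided and Benjamini-Hochberg adjusted over all tested genes; called means an adjusted p below 0.05. Intervals of 95% use the fit's own degrees of freedom. The limits given for 0 counts cover counting error only. On simulated counts of 14100 genes, the fit called 62% of 2-fold and 97% of 4-fold changes, with 7 false calls. The changed genes were drawn from all genes with a mean of at least 1 CPM. The median level was 1.75 CPM for the tested markers and 10.1 CPM for all tested genes. These shares therefore do not give the power for the markers, which was not simulated. No 2 libraries were copies: at most 1.82% of tested genes had equal counts in a pair.

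Replicates are numbered in accession order and pair nothing. Genes given in full are the called markers, the 10 with the smallest p, and the receptor and granule genes; of each other list, called genes and up to 3 with the smallest p. The markers, lists and alternatives were chosen with earlier results of these data known. Litter, pen and sequencing batch were not used here.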

Additional observations from a re-analysis of the deposited data

Results flagged for a closer look

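Within-group spread was examined for the 26 tested markers in both groups, 52 sets of CPM values in all, of which chance sets apart about 5%. In 3 sets 1 liver was far from the rest. CD247 in MIDY 1 was 18.3 CPM against 13.2 to 13.5 in the other MIDY livers. RUNX3 in the same liver was 1.43 CPM against 0.842 to 0.901. CD69 in WT 1 was 0.347 CPM, the lowest of its group, against 0.599 to 0.693. WT 2 was set apart in 0 of the 52, although it was the highest liver for most markers.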

How the results depend on the processing

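The number of markers called lower, 2 in the main analysis, was 2 with RLE size factors, without the 10 most abundant genes, with no filter, with a higher filter (1 CPM in 4 or more libraries) and with DESeq2, 1 with total counts alone or limma voom, 0 without WT replicates 1 and 2 together, and 0 to 2 when 1 library was left out. It was 0 without MIDY 2, MIDY 3, WT 2 or WT 4 and 1 without MIDY 1, MIDY 4, WT 3 or WT 5. No marker was called higher under any of these 17 alternatives. In the main edgeR fit 0 were higher at an unadjusted p below 0.05, which was not counted for the alternatives. The median log2 fold change of the markers stayed between -0.75 and -0.51. Of 437 single values, 1 turned sign, CD3G without WT 2 (0.05; its other fits without 1 library gave down to -0.49). Over all genes, 50 called lower and 115 called higher became 284 and 355 with DESeq2, 82 and 146 with limma voom, and 23 and 42 without WT replicates 1 and 2 together; leaving out 1 library gave 4 to 106 lower and 34 to 152 higher. Fewer samples were tested in the fits without a library; otherwise the cause was not tested. Leaving out libraries and rescaling used the 14100 genes of the main analysis. No paired analysis was possible because the labels give no replicate numbers shared by the groups. Depth limits the markers: 10 of 36 were too low to test, and 11 had under 100 counts over the 9 libraries.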
